A study of Homo sapiens with 6 samples.

Results

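The genes described here are 9 genes of cytosolic nucleic acid sensing and type I interferon signalling: CGAS, STING1, IFIH1, MAVS, IRF3, IRF7, IRF9, STAT2 and ISG15. They were taken as a fixed list from 20033 protein-coding genes (RefSeq, GRCh38.p14), and each was described by the R-loop peaks of each sample within its span plus 2 kb on either side, called its window below. R-loops were mapped by DRIP-seq, in which the S9.6 antibody pulls down restriction-digested nucleic acids that carry a DNA-RNA hybrid. The material was SH-SY5Y, a human neuroblastoma line, infected to express the short hairpin RNA shT2 (3 samples) or shNC3 (3 samples). Both were delivered by lentivirus in a U6 shRNA vector and both cell populations were kept under puromycin, so the vector, the infection and the selection are common to all samples. The series concerns loss of TDP-43; the labels do not say which hairpin targets it, and judged by its name, shT2 is taken for the knockdown, with shNC3 its control. Separate infections are not stated for the 3 samples of either hairpin, so the p-values cover the spread among these samples only, and that spread may be technical.

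Double-stranded DNA in the cytosol is bound by the enzyme cGAS (CGAS), whose cyclic dinucleotide product activates STING (STING1). Long double-stranded RNA is bound by the helicase MDA5 (IFIH1), which signals through the mitochondrial adaptor MAVS. Both arms activate the transcription factors IRF3 and IRF7 and with them type I interferon, which acts on its receptor through STAT2 and IRF9, parts of the complex ISGF3, to switch on genes such as ISG15, a ubiquitin-like modifier. R-loops can release DNA-RNA hybrids that feed such sensors. The peaks measured here say where R-loops lie at these genes; neither RNA, protein nor interferon was measured, and a peak over a gene is not its expression.

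The shT2 lists held 49068 to 50971 peaks that covered 72.7 to 78.2 Mb, and the shNC3 lists 42717 to 45390 peaks that covered 62.9 to 70.5 Mb. The genome-wide background recovered from the peak values was 2.99 to 3.02 fragments per base in shT2 and 1.65 to 1.79 in shNC3, so depth differed with the hairpin. Tests used lengths scaled so that all 6 samples had the same total. TARDBP, the gene of TDP-43, kept peaks in all 6 samples, with less scaled coverage in shT2 (adjusted p = 0.00683, limma); this does not check the knockdown. Marker lists were counted over genes with a peak in both hairpins, of which 22.8% were higher and 25.5% lower in shT2 over the whole genome (limma adjusted p under 0.05). A gene at 0 in shT2 entered the fit only through shNC3 and is given by its values, with no test. Of the 12 noradrenergic neuroblastoma markers, 11 had peaks in both, 6 of them higher and 0 lower, with summed scaled lengths of 119 to 131 kb in shT2 and 101 to 108 kb in shNC3. TH had no peak in any sample. At an unadjusted p under 0.05, 2 noradrenergic markers were lower. Of 16 mesenchymal markers, 7 had peaks in both hairpins, and 3 of these were lower and 0 higher (0 also at an unadjusted p under 0.05), while FN1, VIM, TWIST1 and NOTCH2 were not called. The mesenchymal list had sums of 20.9 to 22.2 kb in shT2 and 63.4 to 68.7 kb in shNC3. PRRX1, CD44, RUNX1, YAP1 and EGFR were at 0 in shT2 and covered in all 3 shNC3 samples. Of 6 epithelial markers, KRT8, KRT18 and KRT80 were at 0 in shT2 and covered in all 3 shNC3 samples. EPCAM, in contrast, had 0, 311 and 558 bp in shT2 and 0 bp in each shNC3 sample. The list sums were 0 to 0.545 kb in shT2 and 27.0 to 28.6 kb in shNC3. KRT8 and KRT18 overlap, so peak bases common to their windows entered these sums for both genes. Of 8 immune cell markers, 6 had no peak in any sample, and the sums overlapped between the hairpins (12.8 kb or more in shT2 and 10.8 to 14.8 kb in shNC3). In these bulk samples, fewer cells with an R-loop and less signal per cell cannot be told apart. The part of these marker differences in the results below was not tested.

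Promoter sequences are shown for the 5 of the 9 genes that the RefSeq table of GRCh38.p14 promoters matched. These 5 differ from one another there in peaks and in interferon response motifs, and a link between the 2 was not tested. Each is the 250 bases before the gene start, 5′ to 3′ on the gene's own strand. Capitals mark GAAA, any 2 bases and GAAA again, read on either strand, the core of the interferon-stimulated response element (ISRE) that ISGF3 and IRF factors bind. The first 2, of MAVS (chr20:3846584-3846833, plus strand) and IRF9 (chr14:24161015-24161264, plus strand), lay under a peak in all 6 samples, whole but for IRF9 in shNC3 replicate 2 (167 bp).
MAVS: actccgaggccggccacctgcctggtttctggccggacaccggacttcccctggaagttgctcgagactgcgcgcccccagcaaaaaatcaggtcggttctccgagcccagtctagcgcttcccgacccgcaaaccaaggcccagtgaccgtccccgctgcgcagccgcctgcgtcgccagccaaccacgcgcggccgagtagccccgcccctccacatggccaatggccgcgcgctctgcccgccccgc
IRF9: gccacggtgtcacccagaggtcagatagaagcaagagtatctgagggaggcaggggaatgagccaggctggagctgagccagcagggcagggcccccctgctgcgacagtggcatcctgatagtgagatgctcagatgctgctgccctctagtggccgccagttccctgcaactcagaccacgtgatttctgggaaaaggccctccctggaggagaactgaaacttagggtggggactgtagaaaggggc
The other 3, of ISG15 (chr1:1013247-1013496, plus strand), IFIH1 (chr2:162318685-162318934, minus strand) and STAT2 (chr12:56360108-56360357, minus strand), lay under a peak in 0 of 6 samples.
ISG15: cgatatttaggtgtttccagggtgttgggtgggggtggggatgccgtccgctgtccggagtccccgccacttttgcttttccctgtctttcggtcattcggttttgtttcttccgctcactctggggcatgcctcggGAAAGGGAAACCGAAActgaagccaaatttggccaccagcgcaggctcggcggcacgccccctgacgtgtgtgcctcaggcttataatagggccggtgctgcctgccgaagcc
IFIH1: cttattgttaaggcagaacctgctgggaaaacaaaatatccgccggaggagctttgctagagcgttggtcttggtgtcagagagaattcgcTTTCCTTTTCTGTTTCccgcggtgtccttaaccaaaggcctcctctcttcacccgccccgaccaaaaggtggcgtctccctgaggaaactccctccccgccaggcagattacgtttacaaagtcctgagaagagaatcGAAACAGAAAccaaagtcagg
STAT2: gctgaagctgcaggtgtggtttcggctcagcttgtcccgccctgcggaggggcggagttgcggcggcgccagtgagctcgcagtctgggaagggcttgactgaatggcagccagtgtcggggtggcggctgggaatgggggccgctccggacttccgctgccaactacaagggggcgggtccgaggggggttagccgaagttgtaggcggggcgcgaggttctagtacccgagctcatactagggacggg

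ISG15 held 2 overlapping matches that begin 113 and 107 bases before the start, and IFIH1 held 3, at 159, 153 and 21 bases, of which the first 2 overlap. MAVS, IRF9 and STAT2 held 0 matches in these windows. Of 22198 promoter windows of protein-coding genes, several for some genes, 2.71% held the motif. A second motif, TTCNNNGAA, which STAT dimers bind, was matched once among these genes, in IRF9 63 bases before its start, and in 5.92% of all windows. A match is a run of letters and no measured binding.

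A peak at a promoter was itself not common in these lists. It covered a window in all 6 samples at 17.9% of the promoter windows and in 0 samples at 59.5%. Windows covered in all 6 samples had a median of 22 CG dinucleotides and those never covered a median of 10. Among the genes shown, MAVS had 28 CG, STAT2 21, ISG15 17, IFIH1 12 and IRF9 4, so the covered pair held both the highest and the lowest number. GGGG was counted on both strands at every base where it begins, so a longer run of G counts more than once. It is present in 91.9% of all windows. These overlapping matches came to 10 in STAT2, 7 in MAVS and in ISG15, 6 in IRF9 and 2 in IFIH1.

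The 9 genes fell into 3 classes of coverage. MAVS, IRF3, IRF7, IRF9 and STAT2 had peaks in every sample, as did 46.9% of all protein-coding genes. STING1 and ISG15 had short peaks in the 3 shNC3 samples and none in the shT2 samples, a class of 379 genes (1.89%). The reverse class, with a peak in 3 shT2 and 0 shNC3 samples, was of similar size, at 332 genes (1.66%). CGAS and IFIH1 had no peak in any sample, like 34.9% of genes. In a limma fit over the 11769 genes covered in at least 3 of 6 samples, 51.3% were called at an adjusted p under 0.05, 27.2% lower and 24.1% higher in shT2. Of the 9 genes, 7 passed the filter, but STING1 and ISG15 did so only through shNC3, which fixes their direction, so their values are a description. Of the 5 genes with peaks in every sample, STAT2, IRF3 and IRF9 were lower, 0 were higher (0 also at an unadjusted p under 0.05), and MAVS and IRF7 were not called, where 25.5% of the 11058 tested genes with a peak in both hairpins were lower and 22.8% higher; the median log2 difference of the 5 genes was -0.23, against -0.07 for those 11058 genes.

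**Figure D1:**
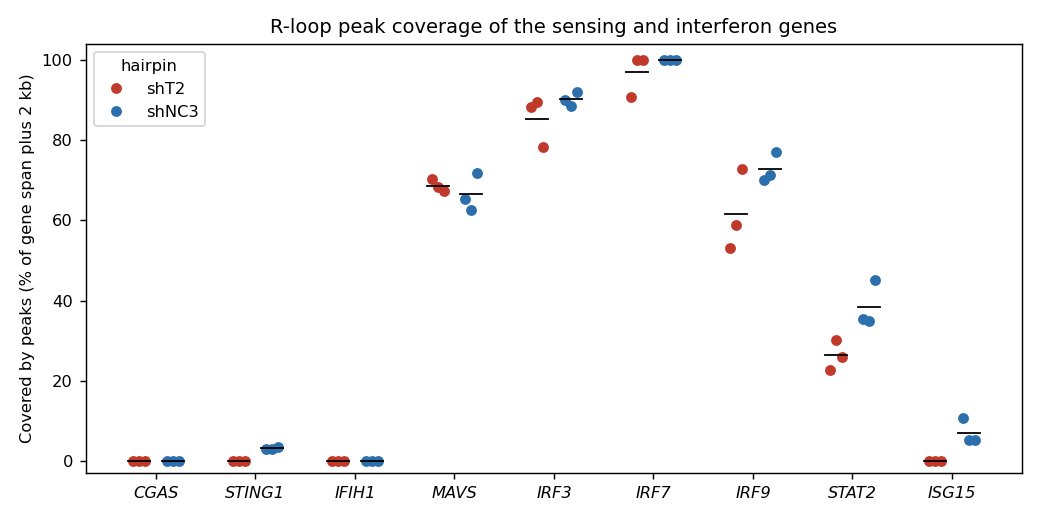
Share of each gene's window (span plus 2 kb on either side) covered by peaks, in percent, one point per sample and a line at the mean, shT2 left of shNC3. CGAS and IFIH1 lie at 0 in all samples, IRF7 at 90.8% to 100%, and for STAT2 the 3 shT2 points (22.7% to 30.2%) lie below the 3 shNC3 points (34.9% to 45.0%).

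The sensors came first in the pathway and had no R-loop peaks. CGAS (chromosome 6, 73423711 to 73452297, 28587 bp) was covered over 0 bp in each of the 6 samples, and the nearest peak lay 8021 to 59189 bp from the gene in shT2 and 12085 to 61170 bp in shNC3. IFIH1 (chromosome 2, 162267074 to 162318684, 51611 bp) was also at 0 bp throughout, in a wider empty stretch. The nearest peak to IFIH1 was 900406, 870770 and 903085 bp away in shT2 replicates 1 to 3 and 900406 bp away in all 3 shNC3 samples. GCA, which begins 79 bp from the start of IFIH1, had no peak in any sample. With no peak in either hairpin, no difference could be tested, and a signal below the peak threshold (q of up to 0.01) would not be seen.

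STING1, the adaptor of the DNA arm (chromosome 5, 139475533 to 139482758), had 0, 0 and 0 bp under peaks in shT2 and 332, 322 and 391 bp in shNC3. Those lengths were alike, but they came from peaks in 3 separate places. In shNC3 replicate 1 the peak began 1535 bp beyond the upper end of the gene, in replicate 2 it lay inside the gene 1165 bp from its lower end, and in replicate 3 it ended 890 bp below the lower end. No base of the window was covered in more than 1 sample. The summit fold enrichments, as the authors' peak caller gave them, were 5.74, 6.41 and 3.65, and no peak remained in replicate 3 at a q of at most 0.0001. The replicate 1 peak lay within LOC101059986, a pseudogene that starts 91 bp beyond the upper end of STING1. SMIM33, which stops 1833 bp below STING1, had 0 bp under peaks in each shT2 sample and 0, 0 and 698 bp in shNC3.

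MAVS, the adaptor of the RNA arm (chromosome 20, 3846834 to 3876118), had more bases under peaks than any other of the 9 genes. They came to 23381, 22718 and 22445 bp in shT2 and to 21742, 20804 and 23919 bp in shNC3. The groups overlapped. Scaled lengths were 21.7 ± 0.988 kb in shT2 and 23.4 ± 1.53 kb in shNC3 (means ± SD, 3 samples each), which differ by -0.11 on the log2 scale (SE 0.06, 95% interval -0.25 to 0.03, adjusted p = 0.170 in limma). The sign turned without scaling (0.046, adjusted p = 0.556) and in windows around the gene ends (0.055, adjusted p = 0.691), and neither was called. The RNA sensor's adaptor thus carried peaks in every sample, while IFIH1 itself carried none.

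Several MAVS peak edges recurred. A promoter peak began at the same base, at -269 bp from the gene start, in all 6 samples. The broad peaks of the gene body began 9892 bp into the gene in 5 samples and ended 26362 bp into it in 5 samples. Divided into 3 equal parts, the middle of the gene was covered over 98.7% in each shT2 sample and over 98.7%, 94.7% and 94.9% in shNC3, and the part nearest the start over 34.3%, 19.1% and 28.6% in shT2 and 28.4%, 31.1% and 42.7% in shNC3. In all, 18304 bp were covered in all 6 samples, 68.2% of the bases covered in any sample.

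The interferon regulatory factors IRF3 and IRF7, which carry both arms to the nucleus, shared peaks with neighbouring genes. For IRF3 (chromosome 19, 49659572 to 49665857) peaks took up 9069, 9221 and 8045 bp in shT2 and 9260, 9113 and 9458 bp in shNC3. These lengths overlapped between the hairpins; shT2 replicate 3 was the lowest. Scaled, they were 8.33 ± 0.450 kb in shT2 and 9.82 ± 0.484 kb in shNC3 (means ± SD, 3 samples each) and did not overlap, as for 65.0% of all tested genes in either direction and 37.4% in this one. On the log2 scale they differ by -0.23 (SE 0.07, adjusted p = 0.0259 in limma). It was not called without scaling (-0.08, adjusted p = 0.351), at equal depth (-0.15, 0.133), at a summit fold of at least 5 (-0.13, 0.271), or when shT2 replicate 2 (adjusted p = 0.0625), shT2 replicate 3 (0.0902), shNC3 replicate 2 (0.0702) or shNC3 replicate 3 (0.0692) was left out.

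The widest IRF3 peak ran in from SCAF1, which ends 930 bp below IRF3 and differed alike (log2 difference -0.25, limma adjusted p = 0.0249). At its other end IRF3 overlaps BCL2L12, a gene of the BCL2 family, by 716 bp. BCL2L12 was covered over 5373, 4826 and 5284 bp in shT2 and over 9195, 7478 and 8674 bp in shNC3, without overlap between the hairpins (log2 difference -0.80, limma adjusted p = 0.000322). With 10 kb in place of 2 kb on either side, the IRF3 difference was -0.40 (limma adjusted p = 0.000493). Within the IRF3 window only 53 bp were covered in all 3 shNC3 samples and in 0 shT2 samples, and 7994 of 10286 bp were covered in all 6 samples.

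IRF7 (chromosome 11, 612555 to 615950), the interferon-amplifying factor, was covered from end to end in 5 of 6 samples. Every base of its 7396 bp window was under a peak in shT2 replicates 2 and 3 and in all 3 shNC3 samples, and 6716 bp were in shT2 replicate 1, where a gap reached from 131 bp below the gene to 550 bp inside it. One peak of 25702 and 29124 bp in shT2 replicates 2 and 3, and of 20241, 24621 and 25917 bp in shNC3 replicates 1 to 3, spanned IRF7 together with the end of PHRF1 and all of CDHR5. The summits of those 5 peaks were 13193 or 13194 bp above the lower end of IRF7, outside its window. The value of -0.19 on the log2 scale (SE 0.07, adjusted p = 0.0660 in limma) rests on the scaling, since the unscaled window was full in 5 of 6 samples (-0.04 without scaling, adjusted p = 0.546). It was called at a q of at most 0.0001 (-0.22, adjusted p = 0.0381), in windows around the gene ends (-0.19, 0.0371) and with 10 kb on either side (-0.17, 0.0355). PHRF1 differed by -0.23 (limma adjusted p = 0.00339) and CDHR5 by -0.13 (0.0792).

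STAT2 and IRF9, the components of ISGF3, were both called lower in shT2. STAT2 (chromosome 12, 56341597 to 56360107) had 5120, 6807 and 5840 bp under peaks in shT2 and 7947, 7861 and 10139 bp in shNC3. All 3 shT2 samples lay below all 3 shNC3 samples, unscaled and scaled. In scaled lengths, 37.4% of all tested genes did not overlap in this direction and 65.0% in either. The scaled means were 5.61 ± 0.625 kb in shT2 and 9.15 ± 1.31 kb in shNC3 (means ± SD, 3 samples each), which differ by -0.66 on the log2 scale (SE 0.12, adjusted p = 0.00354 in limma). This call held when each of the 6 samples was left out (-0.74 to -0.55), without scaling (-0.51, adjusted p = 0.0323) and at equal depth (-0.64, 0.00349), and over the gene without flanks the difference was -0.97 (0.00537). It was lost at a q of at most 0.0001 (-0.52, adjusted p = 0.0509) and at a summit fold of at least 5 (-0.30, adjusted p = 0.130).

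The hairpins stood apart most in the part of STAT2 nearest its start. In that one of 3 equal parts, 0%, 4.73% and 5.32% of the bases were covered in shT2, against 28.8%, 34.9% and 26.3% in shNC3. In the middle part the shares were 8.83%, 16.3% and 9.95% in shT2, against 32.3%, 29.6% and 45.3% in shNC3. In the part nearest the end the hairpins overlapped, at 41.7%, 56.9% and 63.8% in shT2 and 53.8%, 58.3% and 71.8% in shNC3. These parts were set after the peaks had been seen and are a description. The peaks were many and short, 5 to 8 per shT2 sample and 9 to 11 per shNC3 sample, with summit folds of at most 8.55 in shT2 and 11.3 in shNC3. The shNC3 samples shared 576 bp (from 6310 bp above the lower end), 41 bp and 197 bp that no shT2 sample covered. Windows of 2 kb around the gene ends, which hold IL23A peaks at the far end of STAT2, gave 0.17 (limma adjusted p = 0.483), where 25.1% of genes were called lower. IL23A, an interleukin gene that ends 1187 bp below STAT2, was covered over 3321, 3321 and 2004 bp in shT2 and over 1866, 986 and 2949 bp in shNC3, with overlap (log2 difference 0.41, limma adjusted p = 0.299). APOF, on the start side, had no peak in any sample. The pseudogene RNU7-40P takes up 60 bp within STAT2.

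**Figure D2:**
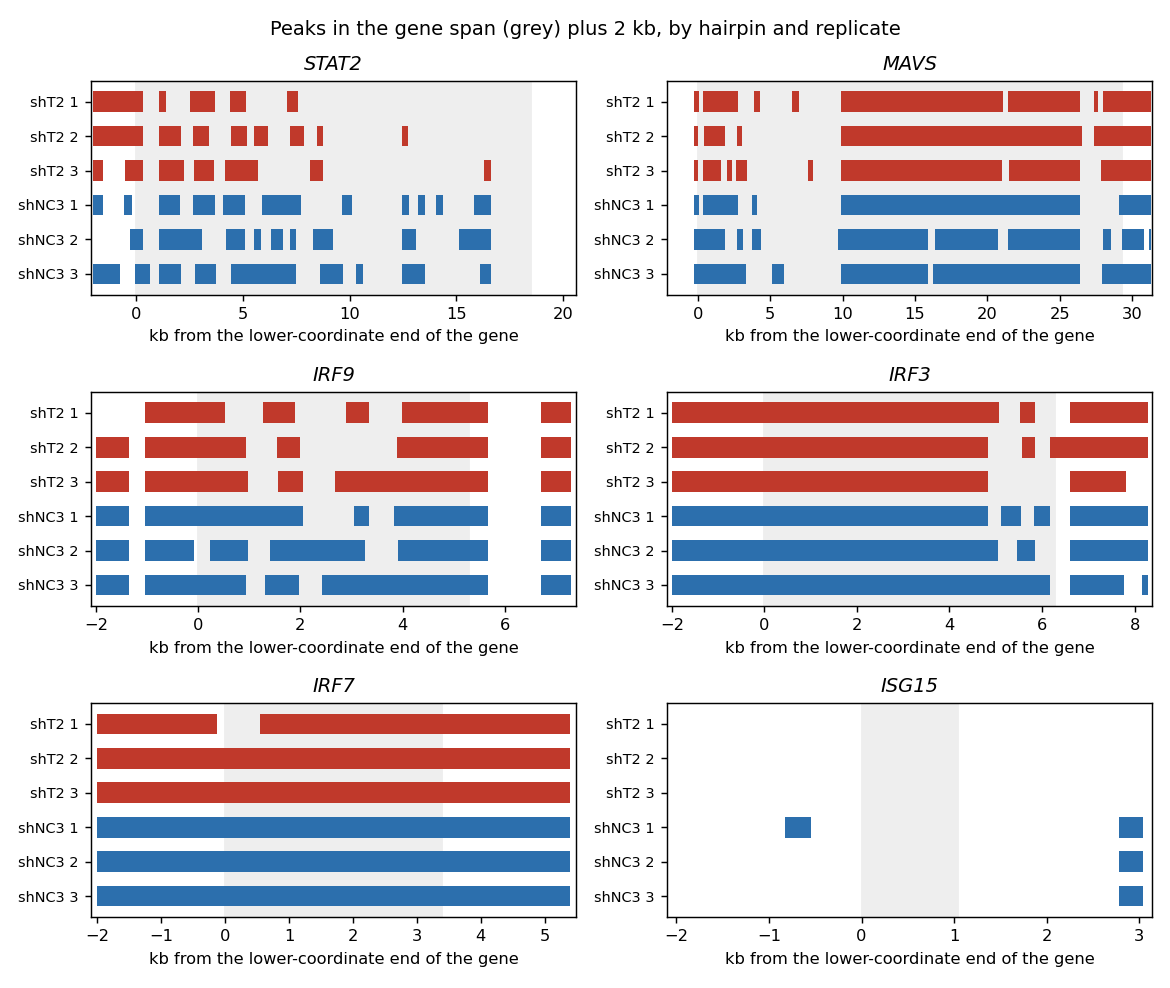
Peaks of each sample (3 shT2 rows above 3 shNC3 rows) across STAT2, MAVS, IRF9, IRF3, IRF7 and ISG15, clipped to the window; grey marks the gene and the x axis is distance in kb from its lower-coordinate end. STAT2 runs right to left, and its right-hand part holds peaks in all 3 shNC3 rows and few in shT2; the MAVS blocks and the IRF7 domain recur in all rows, and ISG15 itself is empty.

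In IRF9 (chromosome 14, 24161265 to 24166565), the DNA-binding subunit of ISGF3, peaks held 4948, 5482 and 6774 bp in shT2 and 6514, 6623 and 7178 bp in shNC3. The hairpins overlapped, since shT2 replicate 3 exceeded shNC3 replicates 1 and 2. Scaled means were 5.46 ± 1.01 kb in shT2 and 7.17 ± 0.534 kb in shNC3 (means ± SD, 3 samples each), which differ by -0.38 on the log2 scale (SE 0.13, adjusted p = 0.0406 in limma). No call was made without scaling (-0.23, adjusted p = 0.168), at a summit fold of at least 5 (-0.41, 0.122), without the flanks (-0.44, 0.0679), in windows around the gene ends (-0.28, 0.0564), with a pseudocount of 100 bp (-0.40, 0.0501), or when shT2 replicate 1 (adjusted p = 0.115), shT2 replicate 2 (0.119), shNC3 replicate 2 (0.106) or shNC3 replicate 3 (0.0957) was left out.

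The outer edges of IRF9 peaks recurred. A promoter peak began at -1049 bp from the start in all 6 samples, another peak ended at 5683 bp in all 6, and the last began at 6702 bp in all 6. Of the 9301 bp window, 3902 bp were covered in all samples and 932 bp in shNC3 samples only. RNF31, a ubiquitin ligase gene that ends 610 bp before IRF9, had 8376, 9016 and 9352 bp under peaks in shT2 and 13701, 13359 and 13358 bp in shNC3 (-0.72 on the log2 scale, SE 0.07, adjusted p = 0.000193 in limma), and 1391 bp of RNF31 lie in the IRF9 window.

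ISG15, the interferon-stimulated modifier (chromosome 1, 1013497 to 1014540), had no peak over its own 1044 bp in any sample. Its window was covered over 0, 0 and 0 bp in shT2 and over 544, 257 and 257 bp in shNC3. The 257 bp common to the 3 shNC3 samples were the near end of peaks that all began at the same base, 1744 bp beyond the gene, and ran on for 449, 2214 and 317 bp. Replicate 1 added a peak of 287 bp that ended 543 bp before the start.

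The flanks of ISG15 were not empty. With 10 kb on either side the locus was lower in shT2, with a log2 difference of -2.004 (limma adjusted p = 3.62e-05). AGRN, a gene of synapse organisation that begins 5580 bp beyond ISG15 and so lies partly in that window, was covered over 4355, 5347 and 4082 bp in shT2 and over 16679, 16577 and 16519 bp in shNC3 (log2 difference -1.90, SE 0.08, limma adjusted p = 1.25e-05). It was named after its values were seen. The bases covered in the ISG15 window thus lay in its flanks, toward AGRN in all 3 shNC3 samples, and none lay in ISG15 itself.

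**Figure D3:**
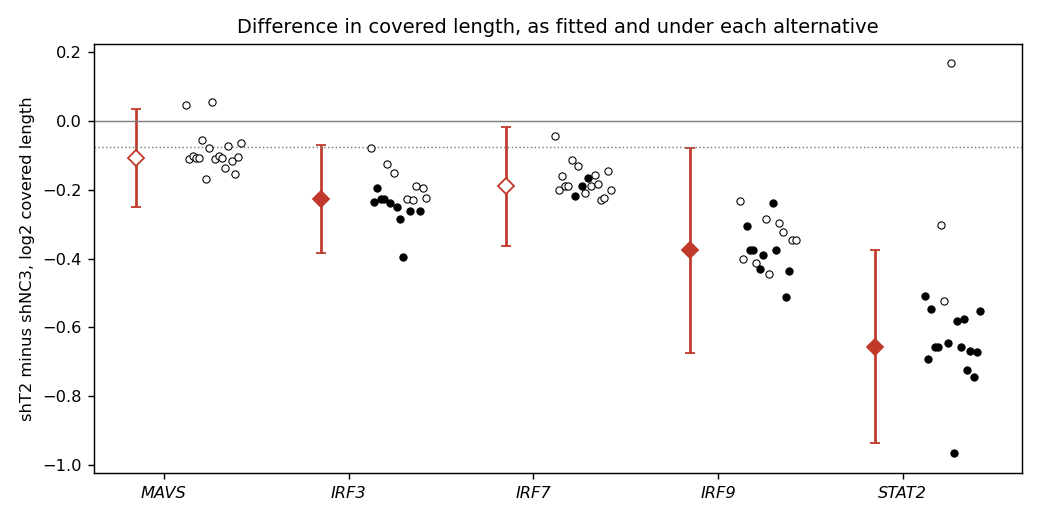
Difference in covered length (shT2 minus shNC3, log2 scale) of the 5 genes with peaks in every sample: red diamonds with 95% intervals as fitted, small circles under each alternative, filled where the adjusted p is under 0.05; the dotted line is the median of all tested genes with a peak in both hairpins (-0.07). STAT2 lies lowest as fitted (-0.66) and reaches 0.17 in windows around the gene ends.

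Some peak edges at these loci fell on the same base in several samples. Of 196 distinct edges in the 9 windows, 20 were shared by 2 or more samples, 14 of those by both hairpins, and 5 by all 6 samples: 1 in MAVS, 3 in IRF9 and 1 in STAT2. Such edges were set against the cut sites of the 5 restriction enzymes used before the pulldown (BsrGI, EcoRI, HindIII, SspI and XbaI), in the promoter sequences of the whole table. Of edges found in 1 sample, 3.17% of 8260 lay within 3 bp of a cut site, against 1.13% of all promoter bases. Of edges at the same base in 6 samples, 100% of 194 did, and of those in 3 samples 99.3% of 144. Sequence at the shared edges of the 9 genes was not used here. IRF3 and ISG15 also had shared edges, 4 and 1, and an IRF3 edge 321 bp beyond the gene recurred in 5 of 6 samples. The lengths given for MAVS, IRF3, IRF9, STAT2 and ISG15 therefore include edges of a kind that, where sequence was read, lay at cut sites.

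**Figure D4:**
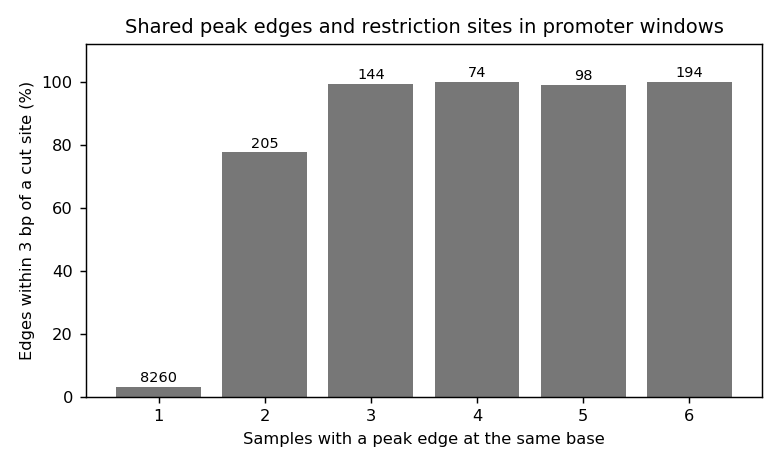
Share of peak edges within 3 bp of a cut site of the 5 enzymes (y axis, percent) by the number of samples with an edge at that very base (x axis), in promoter sequences of all genes; the number of edges stands above each bar. The share is 3.17% for edges of 1 sample and 77.6% for those of 2, and at least 99.0% from 3 samples on.

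The other genes of the pathway were read from 7 lists of 93 genes in all. Of these, 35 had no peak in any sample and 46 could be tested, 5 of them only through shNC3. Of the 41 with a peak in both hairpins, 7 were higher in shT2 and 13 lower, where 22.8% of all such genes were higher and 25.5% lower, and their median log2 difference was -0.24, against -0.07 for all such genes.

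Among 18 other sensors, 11 had no peak in any sample and 4 could be tested. TRIM25, the ubiquitin ligase that acts on the RNA sensor RIG-I, averaged 1.10 ± 0.348 scaled kb in shT2 and 6.34 ± 0.266 in shNC3 (SD, n = 3 each, as for the genes below; log2 difference -2.12, limma adjusted p = 0.000114). The other 3 tested, DHX58, EIF2AK2 and ZNFX1, did not pass. RIGI, TLR9 and OAS1 had peaks in shNC3 only, in too few samples to be tested, and are named to complete the count. Of 10 adaptors and kinases, 7 had peaks in both hairpins, with 3 lower and 0 higher (0 also at an unadjusted p under 0.05). IKBKE, a kinase of IRF3, was at 0 kb in shT2 and 3.10 ± 0.545 kb in shNC3, with no test. TRAF2 averaged 25.5 ± 1.16 kb in shT2 and 37.7 ± 1.02 kb in shNC3 (-0.56, limma adjusted p = 0.000107), and TICAM1, the adaptor of TLR3, 3.86 ± 0.171 kb in shT2 and 6.92 ± 1.26 kb in shNC3 (-0.75, 0.00322). TRAF3 (-0.24, 0.0239) was the other one lower, named to complete the count.

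Enzymes that limit or edit stray nucleic acids went both ways, with 2 of 6 tested higher and 2 lower. ADAR, which edits double-stranded RNA so that MDA5 ignores it, averaged 16.8 ± 0.575 kb in shT2 and 11.1 ± 0.155 kb in shNC3 (log2 difference 0.57, limma adjusted p = 0.000125). DNASE2, a lysosomal DNase, was also higher (0.57, 0.00355). RNASEH2A, the catalytic subunit of RNase H2, averaged 3.32 ± 0.190 kb in shT2 and 7.69 ± 0.281 kb in shNC3 (-1.10, limma adjusted p = 7.14e-05). TREX1, the cytosolic exonuclease, was the other one lower (-0.43, 0.00408), named to complete the count.

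Of the receptor and signalling genes, 11 of 14 could be tested, 2 were higher and 3 lower, near the shares over all genes. The kinases that phosphorylate STAT2 at the interferon receptor moved apart. JAK1 averaged 14.4 ± 0.918 kb in shT2 and 5.85 ± 0.158 kb in shNC3 (log2 difference 1.23, limma adjusted p = 2.3e-05), and TYK2 14.1 ± 0.0716 kb in shT2 and 19.6 ± 1.47 kb in shNC3 (-0.46, 0.000869). PIAS1, an inhibitor of STAT signalling, was higher (1.80, limma adjusted p = 0.00141), and the feedback inhibitors SOCS1 (-0.29, 0.0321) and SOCS3 (-0.42, 0.00161), named to complete the count, were lower. Among 6 tested genes of the IRF family and its cofactors, IRF1 averaged 0.882 ± 0.291 kb in shT2 and 10.2 ± 0.276 kb in shNC3 (-2.97, limma adjusted p = 2.34e-05), IRF2BP2 was lower (-0.25, 0.0381) and IRF5 higher (0.64, 0.00826).

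The interferon genes carried next to nothing: 4 of 5 had no peak in any sample, IFNB1 among them, and IFNK alone could be tested and did not pass (limma adjusted p = 0.181). Of 30 interferon-stimulated genes besides ISG15, 15 had no peak in any sample. Of 6 tested with peaks in both hairpins, 2 were higher, 2 lower and 2 were not called. Another 4 were covered in all 3 shNC3 samples and at 0 in shT2, and have no test. IFITM3, which blocks viral entry, had 0, 0 and 0 bp in shT2 and 1403, 972 and 997 bp in shNC3. PARP9 and DTX3L, which form a complex, share 4447 bp of their windows; both were at 0 kb in shT2, and in shNC3 PARP9 had 1.54 ± 0.167 kb and DTX3L 1.61 ± 0.163 kb. The higher ones were IFIT5 (1.15, limma adjusted p = 0.0185) and UBE2L6, the ISG15-conjugating enzyme (1.15, 0.0305), and the lower ones ISG20 (-0.72, 0.0106) and PML (-1.27, 0.00166), all named after their values were seen. The rest had peaks in too few samples to be tested and are named to complete the count. BST2 (437, 799 and 0 bp) and HERC5 (336, 0 and 340 bp) had peaks in shT2 only. PARP14, RSAD2 and PSMB8 had peaks in shNC3 only.

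**Figure D5:**
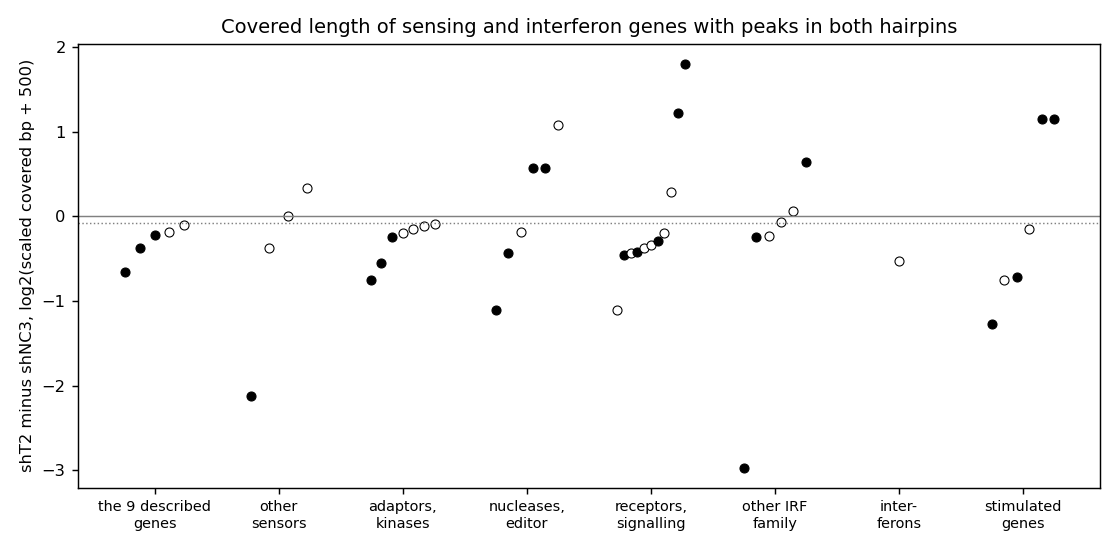
Difference in covered length (shT2 minus shNC3, log2(scaled covered bp + 500)) of each tested gene with a peak in both hairpins, by list, one point per gene, filled where the limma adjusted p is under 0.05; the dotted line is the median of all such genes (-0.07). IRF1 (-2.97) lies lowest and PIAS1 (1.80) highest.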

How the data were processed

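DRIP-seq peaks of 3 shT2 and 3 shNC3 samples of SH-SY5Y were used as deposited, 1 list per sample. Alignment and calling tools in the submitters' processing notes are Bowtie2 (2.4.4), SAMtools and MACS2 (2.2.6), with the build hg38. The protocols mention an RNase H-treated control; whether it entered the peak calling is not stated there. Each deposited list gives, by its column order, a score, a fold enrichment ratio at the summit, a −log10 p-value and a −log10 q-value (q of up to 0.01); these authors' values only described or filtered peaks within a list.

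Covered bases per protein-coding gene (span plus 2 kb, overlap of at least 1 bp) were scaled to the mean total covered length, and log2(scaled bp + 500) went into limma (3.58.1, under R 4.3.3; eBayes, trend and robust, no covariates) over genes covered in at least 3 of 6 samples, with Benjamini-Hochberg adjustment. Log2 differences understate changes of short coverage. The fit was tested on simulated data. For equal depth, summit pileup and background were recovered from fold and p and scaled to the shallowest library (background 1.65); only summits, not widths, were judged. Promoters are RefSeq sequences; peak and cut-site comparisons with them are descriptions. Of the genes, the 9 listed, those overlapping their windows, TARDBP and at most 3 per pathway list with the smallest adjusted p were to be named; a few more are marked as named later or complete a count. The genes and lists were chosen with earlier results of these data known.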

Additional observations from a re-analysis of the deposited data

How the results depend on the processing

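As fitted, 5 of the 9 genes were called lower in shT2, but STING1 and ISG15 entered only through shNC3; of the 5 genes with peaks in every sample, 3 were called. The count was 3 without scaling (of those 5 genes, STAT2 alone), 3 among genes covered in all 6 samples, 0 with peaks of at least 5-fold summit enrichment (limma; 0 at an unadjusted p under 0.05), 2 without flanks and 2 with a replicate block; leaving out 1 replicate gave 1 to 3. It was 6 with 10 kb flanks, where IRF7 joined, and 4 or 5 under the remaining alternatives. Of the 5 genes with peaks in every sample, 4 were called with 10 kb flanks and 2 or 3 under those remaining. Over all genes, those lower were 3977 of 12721 with 10 kb flanks, 2672 of 11125 without flanks and 2866 of 11769 with the replicate block. They were 2469 of 9393 covered in all 6 samples and 1955 of 10142 at 5-fold enrichment. Leaving out 1 replicate gave 2348 to 2717 of 11247 to 11330, and the remaining alternatives 2658 to 3336 of 10577 to 13034. None of the 9 genes was called higher under the 18 alternatives run, and CGAS and IFIH1 could be tested under none of them. MAVS turned to 0.046 without scaling and to 0.055 in windows around the gene ends, where STAT2 turned to 0.17; none of these was called. Over all genes, 3199 were lower and 2842 higher as fitted, against 2044 lower without scaling (60.9% of calls higher in place of 47.0%, with a median log2 difference of 0.06 in place of -0.08), 1955 lower and 1843 higher at 5-fold enrichment, and 1572 higher around the gene ends. Replicate numbers do not pair the samples (correlations of same-numbered deviations -0.02, -0.06 and -0.01), and with the replicate block STAT2 (-0.66, adjusted p = 0.00163) and IRF9 (-0.38, 0.0248) were called and IRF3 (0.0684) was not. The cause of the changes was not tested. Some alternatives also leave fewer genes or samples. The design has 3 samples per hairpin, and depth differs with the hairpin.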
